A study of Mus musculus with 2 samples.

Results

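The 8 genes of the nuclear speckle named here were examined in CD69+ DP thymocytes, namely Nsrp1, Srrm1, Srrm2, Son, Pnn, Acin1, Rnps1 and the long non-coding RNA Malat1. They were taken from a fixed list of names and matched by gene identifier, and all 8 were found among the 24532 gene identifiers of the deposited tables. The cells are double-positive thymocytes, the CD4 and CD8 co-expressing precursors of T cells, that carry CD69, a marker of recent T cell receptor signalling. There were 2 RNA libraries, both from C57BL/6 mice aged 6 weeks. One is labelled wild type and carries the floxed alleles alone (NSRP1f/f); the other is labelled as an NSrp70 conditional knockout, KO, and carries the same alleles with CD4Cre (NSRP1f/fCD4Cre). Both groups therefore share the floxed Nsrp1 alleles, and the CD4 promoter drives Cre in DP thymocytes and in the T cells that descend from them. The labels give neither the sex nor the number of mice behind a library, and they do not name the floxed exon.

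Nuclear speckles are bodies between the chromosomes of the nucleus in which splicing factors and polyadenylated RNA gather. SRRM2 and SON form their core, and many of their other proteins carry long stretches of alternating arginine and serine. NSRP1, also named NSrp70, is a speckle protein that alters the choice of splice sites. The comparison is between the genotype labels, and the Nsrp1 RNA of each library is given below.

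Each genotype is represented by 1 library, so no test was made, the spread between mice is unknown, and every interval covers counting error only. TPM is a level corrected for transcript length and scaled to the same total in each library. Read pairs were estimated from the depth of coverage, and the covered bases came to 4199 megabases in the wild-type library and 5076 megabases in the KO library. Intervals are at 95%, from the Poisson distribution for a level and by the Clopper-Pearson method for a ratio of KO over wild type. In bulk RNA, fewer cells of a type and less RNA per cell cannot be told apart. All 9 markers of DP thymocytes were present in both libraries, with a sum of 5718 and 6165 TPM; 6 were higher in the KO library and 3 lower, with a median log2 fold change of 0.22. Cd4 stood at 725 and 663 TPM, Cd8a at 1138 and 1151 TPM, Cd69 at 430 and 522 TPM and Dntt, which had the largest difference of the 9, at 572 and 760 TPM. Of the 6 thymic epithelium markers Krt5, Krt8 and Foxn1 were listed at 0 in both libraries, Epcam stood at 6.87 and 8.35 TPM, and the list summed to 7.34 and 9.10 TPM. The 6 B cell markers summed to 54.0 and 62.5 TPM, and the 6 dendritic cell markers to 294 and 217 TPM. The macrophage list summed to 71.9 and 56.1 TPM and the erythroid list to 0.846 and 1.17 TPM. In the fibroblast and endothelial list Col1a2, Col3a1 and Pdgfra were listed at 0, Col1a1 and Cdh5 were each below 0.5 TPM, and Pecam1 stood at 119.5 and 103.7 TPM, nearly the whole sum of the list. The list of mature or innate-like lymphocytes summed to 46.7 and 67.0 TPM. Xist stood at 202 and 76.3 TPM and the Y-linked Ddx3y at 31.1 and 71.2 TPM, so both libraries held RNA of both kinds in different proportions. The part of these differences in the results was not tested.

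The exons that follow carry the check of the knockout label. They are the 5 internal exons of the only annotated Nsrp1 transcript, all coding, on the minus strand of chromosome 11 in GRCm38, and the loss of one would be seen as a loss of depth there. Exons 2, 5 and 6 are 91, 208 and 109 bases long, lengths that are no multiple of a codon, whereas exons 3 and 4, with 57 and 129 bases, hold whole numbers of codons.
Nsrp1 exon 2, chr11:77076654-77076744: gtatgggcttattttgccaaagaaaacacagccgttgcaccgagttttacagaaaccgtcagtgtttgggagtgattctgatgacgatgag
Nsrp1 exon 3, chr11:77054944-77055000: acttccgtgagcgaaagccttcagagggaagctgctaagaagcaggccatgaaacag
Nsrp1 exon 4, chr11:77050584-77050712: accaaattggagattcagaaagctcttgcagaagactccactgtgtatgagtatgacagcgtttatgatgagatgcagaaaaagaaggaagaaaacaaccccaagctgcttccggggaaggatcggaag
Nsrp1 exon 5, chr11:77049273-77049480: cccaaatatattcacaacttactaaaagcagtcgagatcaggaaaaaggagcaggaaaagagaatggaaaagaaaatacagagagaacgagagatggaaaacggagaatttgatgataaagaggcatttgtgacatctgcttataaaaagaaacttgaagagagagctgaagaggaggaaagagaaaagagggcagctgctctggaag
Nsrp1 exon 6, chr11:77048353-77048461: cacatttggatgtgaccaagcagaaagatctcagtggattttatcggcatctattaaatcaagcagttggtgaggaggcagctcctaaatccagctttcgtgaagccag

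All of these exons were read in the KO library at about the depth of the wild-type library. Expressed as TPM-equivalents (depth times the library's factor from depth to TPM), exon 2 stood at 33.5 in the wild-type and 31.0 in the KO library, a ratio of 0.924 (0.533 to 1.61). Exon 3 stood at 36.3 in each library and exon 4 at 34.0 and 31.3. For exon 5 the depths were 21.3 and 23.1, and for exon 6 they were 35.0 and 37.4. No exon of the 7 had an interval that left out 1. The intervals are wide, because exons 2 to 6 held between 17.9 and 53.6 estimated read pairs each, and the lowest bound among them was 0.517, for exon 3. The Nsrp1 RNA level was 29.7 TPM (27.7 to 31.9) in the wild-type and 29.6 TPM (27.9 to 31.5) in the KO library, a ratio of 0.997 (0.908 to 1.09). Neither the RNA level nor the depth of exons 2 to 7 thus differed with the label, and exon 1, with 3.56 and 3.79 estimated read pairs, was too shallow to compare. NSRP1 protein was not measured here, and the second library is called the library labelled KO, or KO library for short.

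The other 7 genes were expressed above Nsrp1, and 6 of them were lower in the KO library, with ratios of 0.619 to 0.887, while Rnps1 was 9.89% higher. None reached a log2 fold change of 1, computed as log2((TPM + 1) in KO / (TPM + 1) in wild type); across 12029 genes with at least 1 TPM in a library 2.03% did, 1.37% lower and 0.657% higher. Malat1 and Srrm2 were lower by 0.5 or more, a size that 6.42% of all genes reached in that direction, 3.37% in the other and 9.78% in either. The median over the 8 genes was -0.34, against -0.07 over all genes, of which 61.5% were below zero. Over all genes 772 were lower and 405 higher by 0.5 or more, a split that became 351 lower and 394 higher with FPKM in place of TPM. The pseudocount was then 1 FPKM, which weighs more, since FPKM was lower than TPM (Nsrp1 at 11.9 FPKM and 29.7 TPM in the wild-type library). With a pseudocount of 5 TPM the counts were 297 lower and 192 higher. With FPKM the values of Malat1, Srrm2, Acin1, Srrm1, Son and Pnn stayed below zero and that of Nsrp1 moved to 0.09.

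**Figure D1:**
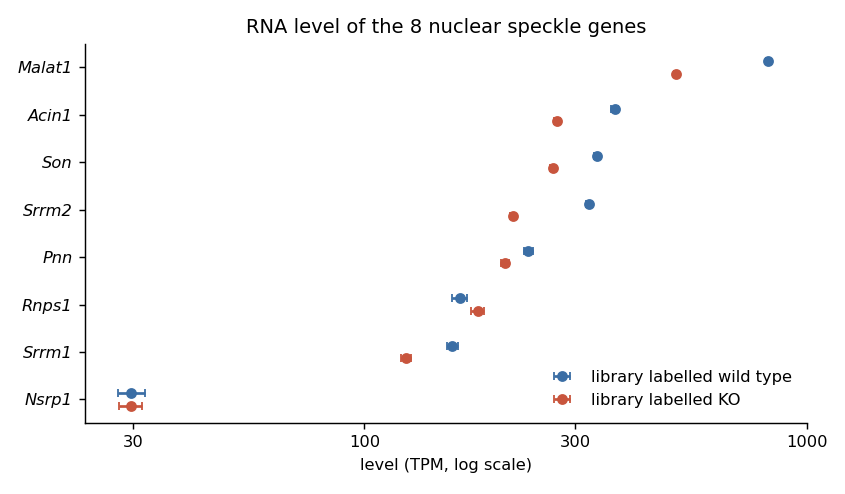
RNA level of the 8 nuclear speckle genes in TPM on a log axis, with the wild-type library in blue, the KO library in red and 95% Poisson intervals as bars (counting error only). Malat1, Acin1, Son, Srrm2, Pnn and Srrm1 are lower in the KO library, Rnps1 is slightly higher, and Nsrp1 lies at 29.7 and 29.6 TPM.

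The 2 scaffold genes of the speckle core differed in size. Srrm2 (chr17:23803187-23824743) stood at 322 TPM (318 to 326) in the wild-type and 216 TPM (213 to 219) in the KO library, a ratio of 0.672 (0.660 to 0.685). Son (chr16:91647824-91679192), whose product also binds DNA and RNA, stood at 335 TPM (331 to 339) and 267 TPM (263 to 270), a ratio of 0.796 (0.781 to 0.810). Srrm2 was the lower of the pair in the KO library although Son and Srrm2 were close in the wild-type library.

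Srrm1 (chr4:135320484-135353214) encodes SRm160, a splicing coactivator that pairs with SRRM2. Its level was 158 TPM (154 to 162) in the wild-type and 124 TPM (121 to 128) in the KO library, with a ratio of 0.786 (0.756 to 0.818).

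RNPS1, acinus (Acin1) and pinin (Pnn) belong to the ASAP and PSAP complexes, which join RNPS1 and SAP18 with acinus or pinin at the exon junction complex, the protein mark that splicing leaves on mRNA. Acin1 (chr14:54642161-54686931) stood at 368 TPM (362 to 375) and 273 TPM (268 to 277), a ratio of 0.740 (0.722 to 0.759). Pnn (chr12:59066919-59074017) stood at 235 TPM (229 to 240) and 208 TPM (204 to 213), a ratio of 0.887 (0.859 to 0.916). Rnps1 (chr17:24414675-24425897) went the other way, with 164 TPM (158 to 171) and 180 TPM (174 to 187), a ratio of 1.10 (1.04 to 1.16). Acin1 and Pnn were thus lower and their shared partner higher, without regard to transcript length, which is taken up below. Sap18, the fourth subunit, was at 8.02 and 7.67 TPM. A share of 30.6% of the 50-base words of the Rnps1 transcript also occurs in the pseudogene Gm9825, so part of its reads could come from there.

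Malat1 (chr19:5795690-5802672), an abundant unspliced RNA that stays in the nucleus and gathers at speckles, had the largest difference of the 8. It stood at 817 TPM (809 to 824) in the wild-type and 506 TPM (501 to 511) in the KO library, a ratio of 0.619 (0.611 to 0.628), on 49324 and 39372 estimated read pairs. It ranked 143rd by level among the genes of the wild-type library. A second architectural RNA, Neat1, the core of paraspeckles, is annotated with a short and a long form that share their start. The short form of 3185 bases stood at 128 and 170 TPM, and the long form of 20769 bases at 19.0 and 0.778 TPM, 24.4-fold lower (21.0 to 28.5) in the KO library. These forms overlap on 1 strand, so their split is an estimate of the quantification.

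Transcript length ran along with these differences. Across all genes the median log2 fold change went from 0.07 for transcripts of up to 1000 bases to -0.35 for those over 8000 bases. Rnps1, with 1619 bases the shortest of the 8, was the one with a higher level, and Srrm2 and Malat1 are 8600 and 6983 bases long. Son, at 8451 bases, had a log2 fold change of -0.33, which is at the median of its class (-0.35 over 409 genes): 54.5% of that class was as low or lower. Srrm2, in the same class, was at -0.57, a value that 8.80% of the class reached. Malat1 stood at -0.69 in a class with a median of -0.25 over 676 genes, of which 1.63% were as low. For Acin1 the value was -0.43 against -0.18 over 1982 genes, of which 8.02% were as low. In the class of 3000 to 4000 bases, with a median of -0.10 over 1972 genes, Srrm1 stood at -0.34, Pnn at -0.17 and Nsrp1 at -0.0046. Of this class 11.3% was as low as Srrm1 or lower, 34.9% as low as Pnn and 70.8% as low as Nsrp1. Rnps1 stood at 0.14 in the class of 1000 to 2000 bases. That class had a median of 0.05 over 2787 genes, of which 68.3% were as low or lower. Comparison within a class of length was chosen after the data were seen.

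**Figure D2:**
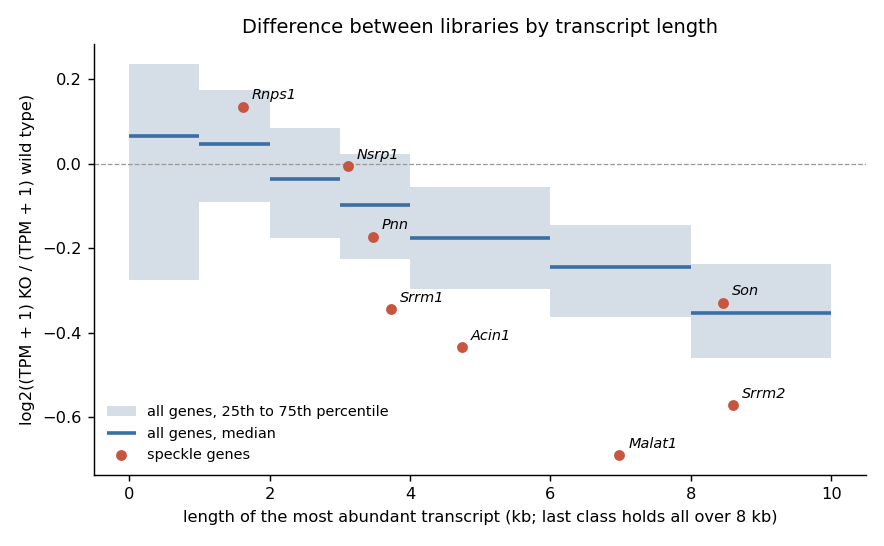
Log2 fold change of KO over wild type (TPM + 1) against the length of the most abundant transcript in kb, with the median (blue line) and the 25th to 75th percentile (grey) of all genes in each class of length and the 8 speckle genes as red points. The median of all genes goes from 0.07 to -0.35 with length; Son lies at the median of its class, and Malat1, Srrm2, Acin1 and Srrm1 lie below the grey range.

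Along the transcripts, the long spliced genes Srrm2, Son and Acin1 were lower mainly at the 5′ end. Malat1 has 1 exon, so where along it the depth was lower could not be seen. In Srrm2 the first 9 exons had ratios of 0.464 to 0.550, the exon of 6569 bases that holds most of the coding sequence had 0.651 (0.637 to 0.665), and the last 4 exons had 0.806 to 0.890. Averaged over the first 1000 bases, Srrm2 stood at 194 TPM-equivalents in the wild-type and 96.9 in the KO library; over the last 1000 bases it stood at 379 and 329. The 3′ end was thus higher relative to the 5′ end in the KO library by 0.80 on the log2 scale, with a counting half-width of 0.13.

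Son showed the same shape with a higher end. Its first exon stood at 72.5 and 39.2 TPM-equivalents (ratio 0.541, interval 0.393 to 0.741), its exon of 5970 bases at 313 and 226 (0.722), and its last exon at 332 and 360 (1.08, interval 1.03 to 1.13). At its 3′ end Son was therefore not lower in the KO library. The shift from the first to the last 1000 bases was 0.62 ± 0.11 for Son and 0.54 ± 0.16 for Acin1, where ± is the counting half-width. In Srrm1 it was 0.26 ± 0.25, with ratios of 0.725 at the start and 0.868 at the end. Most of that end is the last annotated exon of 971 bases, which was little covered. It stood at 23.1 and 19.4 TPM-equivalents, against 390 and 360 in exon 17 before it. Exons 16 and 17 had ratios of 0.889 and 0.923.

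Such shifts were common in these libraries. Of 3181 genes with at least 2500 bases, ends in separate exons and 100 read pairs at each end, 95.6% had a higher 3′ end relative to the 5′ end in the KO library, with a median shift of 0.34. A shift of 0.5 or more was found in 23.1% of them, and in 3 of the 4 speckle genes that could be compared in this way. None of the 4 reached 1, which 1.54% of genes did. For transcripts over 6000 bases the median was 0.56 over 595 genes, with a 75th percentile of 0.74. Son (0.62) was near that median, and Srrm2 (0.80) was a little above the 75th percentile. Of all genes compared, of any length from 2500 bases, 4.50% had a shift as large as that of Srrm2. The part of this difference in depth along transcripts in the lower levels was not tested.

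Nsrp1, Pnn and Rnps1 could be compared only as terminal exon against all other exons. Nsrp1 had ratios of 0.996 and 0.999 in these parts, a shift of -0.0045 ± 0.34, where the median of 6793 genes was 0.20. Pnn had 0.917 and 0.810, a shift of 0.18 ± 0.10, and Rnps1 1.14 and 1.06, a shift of 0.11 ± 0.15. A shift of 0.5 or more by this measure was found in 6.34% of genes and one of 1 or more in 0.501%, and Son, with 0.52 ± 0.07, was the single speckle gene among them.

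**Figure D3:**
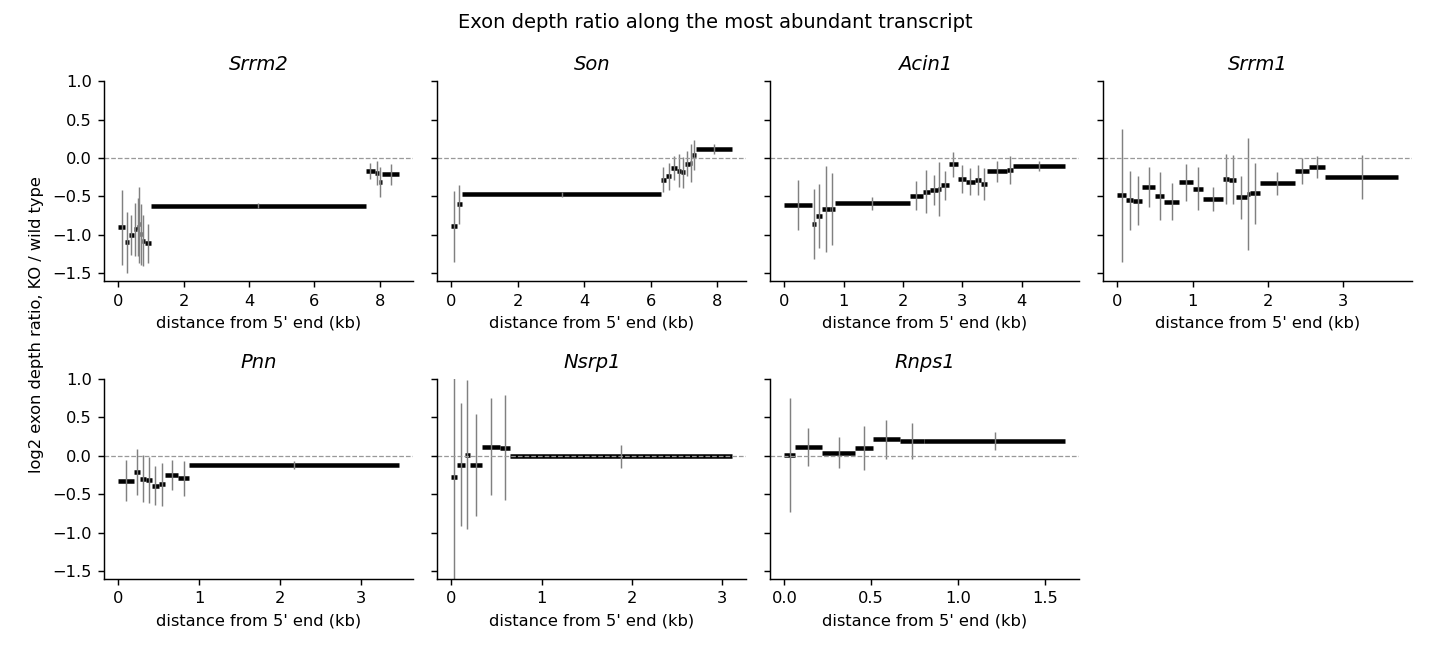
Log2 ratio of exon depth, KO over wild type, against distance from the 5′ end of the most abundant transcript in kb, for the 7 spliced speckle genes; black bars span each exon and grey lines are 95% counting intervals, some of which run beyond the axis. Srrm2, Son and Acin1 climb from the 5′ to the 3′ end, with Srrm2 at ratios of 0.464 to 0.550 in its first 9 exons and 0.806 to 0.890 in its last 4, while Nsrp1 stays near zero. Exons 2 and 3 of Rnps1 are not part of that transcript and are not drawn.

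Splice forms were compared in the 4 genes with several annotated transcripts, Acin1, Rnps1, Son and Srrm1, with 13 transcripts in all. Inside these genes 5 segments are held by some forms and skipped by others. Sequences are shown for 3 of them, without a 3-base segment of Acin1 and exon 2 of Rnps1; capitals mark the bases that are present in some forms only, and the Rnps1 sequence is the coding part of an exon that is skipped as a whole.
Acin1 alternative exon start, chr14:54646568-54646603, minus strand: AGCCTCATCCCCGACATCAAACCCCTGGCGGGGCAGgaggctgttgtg
Srrm1 alternative exon start, chr4:135340608-135340622, minus strand: ATCATACTCTCCTAGaaggcggccaag
Rnps1 exon 3, coding part, chr17:24418148-24418218, plus strand: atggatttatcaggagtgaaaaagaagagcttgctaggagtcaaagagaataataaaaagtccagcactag

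Rnps1 exon 3, singled out after its values were seen, was lower in the KO library while the other exons of the gene were not. The exon spans 181 bases (chr17:24418038-24418218), and GENCODE places the start codon of the forms that include it inside it, at the first base printed above; the form that skips it starts in exon 1. Its depth was 57.8 TPM-equivalents in the wild-type and 37.9 in the KO library, a ratio of 0.655 (0.477 to 0.899), on 90.5 and 76.5 estimated read pairs. The ratios of the other 8 exons ran from 1.00 to 1.16. Relative to exons 4 to 8, which all forms contain, exon 3 had 30.4% of the depth in the wild-type and 18.3% in the KO library. The neighbouring exon 2, which a single form includes, had 15.6% and 16.4%. Set against its whole gene, exon 3 was lower by -0.74 on the log2 scale, a value that 0.392% of 42640 internal exons of all genes reached; 2.33% of them were lower by 0.5 or more, as were 5 of the 64 internal exons of the speckle genes, the others being in Acin1 and Srrm2. No 50-base word that starts in the first 3 exons of this transcript was shared with Gm9825. The shared words start from exon 4 on. Reads from Gm9825 could therefore alter the depth of exons 4 to 8 and of the whole gene, the references for exon 3. Their part in the values for exon 3 was not tested.

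By transcript, the Rnps1 form without exons 2 and 3 (NM_001080128) stood at 108 and 130 TPM, 66.1% and 71.9% of the gene. The form with exon 3 alone (NM_001080127) stood at 45.4 and 31.6 TPM, 27.7% and 17.5%, and the form with both (NM_009070) at 10.2 and 19.0 TPM, 6.22% and 10.5%. Together the forms with exon 3 made up 33.9% and 28.1% of the gene. This is a smaller difference than the 30.4% and 18.3% by exon depth, so the size of the exon 3 difference depends on the measure. The difference of 10.1 percentage points for NM_001080127 was the largest among the 13 transcripts. None reached 25 points, which 3.78% of 8852 transcripts of all genes did.

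Acin1 has a long form group that starts upstream and a short group that starts inside the gene and lacks the first exons. Summed over transcripts, the 2 long forms stood at 216 TPM in the wild-type and 204 TPM in the KO library, and the 4 short forms at 152 and 68.9 TPM, so that the long share was 58.6% and 74.7%. Depth of the exons that belong to 1 group did not show this split. The 8 blocks found only in long forms had ratios of 0.553 to 0.739, and the 2 blocks found only in short forms had 0.651 (0.487 to 0.868) and 0.697 (0.430 to 1.12). The exons shared by both had ratios of 0.748 to 0.944. The first exon also overlaps 1700123O20Rik on the other strand by 463 bases, so its depth is uncertain.

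**Figure D4:**
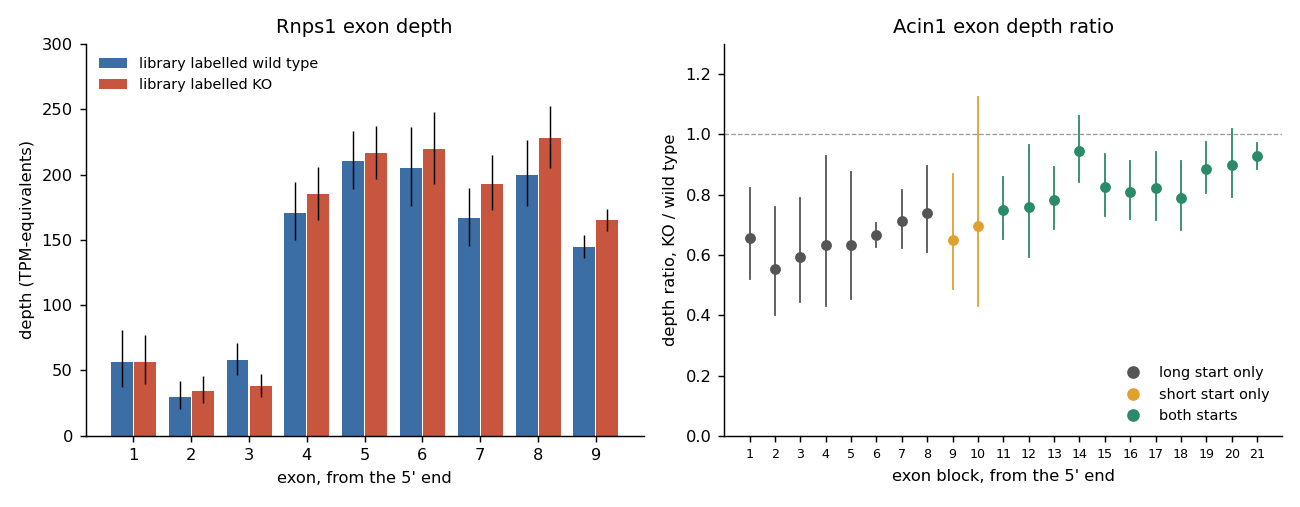
Left, depth of the 9 Rnps1 exons in TPM-equivalents (wild-type library blue, KO library red, bars from 0 with 95% Poisson intervals); exon 3 is the one that is clearly lower in the KO library, 57.8 against 37.9. Right, ratio of depth KO over wild type for the 21 exon blocks of Acin1 with 95% counting intervals, coloured by the start group that contains them; blocks of the long and of the short forms lie at similar ratios, between 0.553 and 0.739.

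Of the 3 small alternatives of Acin1 and Srrm1, the longer 2 had similar shares in both libraries. Acin1 forms with the 36 bases in capitals made up 61.1% of its TPM in the wild-type and 59.9% in the KO library. The block that holds these bases had a depth ratio of 0.944 (0.841 to 1.06), the highest of the 21 Acin1 blocks. The blocks beside it had 0.781 (0.685 to 0.891) and 0.827 (0.731 to 0.936). Srrm1 forms with the 15 bases in capitals made up 64.0% and 65.1%. The 3-base segment of Acin1 (chr14:54646834-54646836) was in forms with 86.4% and 93.1% of its TPM. The single form without it, NM_001242606, is one of the short forms and stood at 50.2 and 18.8 TPM. Son has a long form (NM_178880) at 79.8% and 82.4% and a short form (NM_019973), which ends in an exon of its own after the fourth, at 20.2% and 17.6%. The ratio of that exon, 0.854 (0.757 to 0.965), was close to those of exon 4 before it (0.821) and of the next exon of the long form (0.847).

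Other genes of the speckle and its neighbours were taken from lists. The list of speckle scaffolds and proteins with arginine-serine stretches, including kinases that phosphorylate them, had 53 measured genes, of which 48 were below zero and 5 above, where 61.5% of all genes were below zero; its median was -0.18, and -0.18 for the 46 that are not among the 8. The median was -0.080 with FPKM and -0.12 with the median of all genes set to zero. The share of all genes below zero rose with transcript length. It was 58.4% at 2000 to 3000 bases, 71.2% at 3000 to 4000, 83.0% at 4000 to 6000 and 91.0% at 6000 to 8000. The list was not compared within classes of length. One gene, Srrm2, was lower by 0.5 or more and none higher. The kinase genes Dyrk1b (60.8 and 43.1 TPM, log2 fold change -0.49) and Dyrk2 (59.7 and 43.9 TPM, -0.44) were the lowest after Srrm2. The CLK kinases, which release splicing factors from speckles, were between -0.22 (Clk2) and -0.05 (Clk4), with Clk1 at 419 and 364 TPM. At the other end stood U2af1, a subunit that reads the 3′ splice site (391 and 431 TPM, 0.14), Rnps1, and Zranb2, a zinc finger splicing factor (111 and 117 TPM, 0.08).

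Exon junction complex genes were spread on both sides of zero, with 7 of 15 above and a median of -0.04, which turned to 0.060 with FPKM, 0.024 with the median of all genes set to zero and 0.019 without the terminal exons. The core genes Magoh (224 and 261 TPM, 0.22), Rbm8a (64.9 and 76.2 TPM, 0.23) and the export adaptor gene Alyref (130 and 157 TPM, 0.27) were the highest. Acin1, the core gene Casc3 (102 and 85.3 TPM, -0.26) and Pnn were the lowest. None of the 15 reached 0.5.

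In the list of nuclear architectural RNAs and paraspeckle proteins 16 of 19 genes were below zero, against 61.5% of all genes, with a median of -0.12 that became -0.024 with FPKM and -0.060 with the median of all genes set to zero. The 3 lower by 0.5 or more, a size that 6.42% of all genes reached, were all long non-coding RNAs: Malat1, Firre (35.4 and 24.0 TPM, -0.54) and Kcnq1ot1 (1.18 and 0.530 TPM, -0.51). By length, 5.40% of genes of 4000 to 6000 bases reached it, 7.40% of 6000 to 8000 and 18.3% over 8000. Firre has 5815 bases and Kcnq1ot1 83437. Kcnq1ot1 was near the limit of 1 TPM, and its ratio without the pseudocount was 0.448. The paraspeckle and splicing gene Hnrnpk (849 and 915 TPM, 0.11) and the 3′ end processing gene Nudt21 (164 and 175 TPM, 0.10) were the highest after Neat1, whose summed level was 147 and 171 TPM. Neat1 had 6949 and 6231 estimated read pairs, and its long form stood at 19.0 and 0.778 TPM. The direction of Neat1 thus depends on the measure. Smarca4, a chromatin remodeller gene of 6376 bases, stood at 155 and 126 TPM (-0.29).

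**Figure D5:**
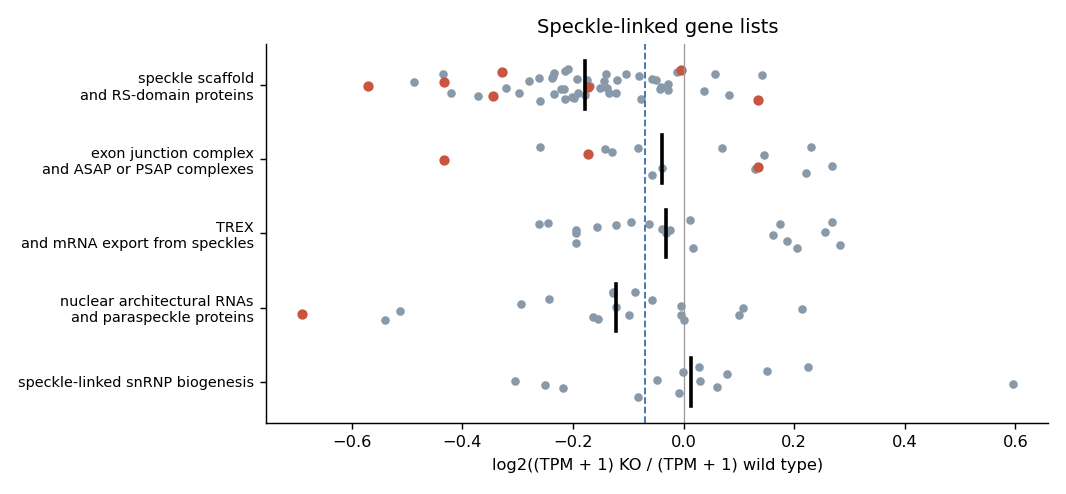
Log2 fold change of KO over wild type (TPM + 1) for the measured genes of 5 speckle-linked lists, 1 point per gene (vertical scatter has no meaning), with members of the 8 in red, list medians as black bars and the median of all genes as a dashed blue line at -0.07. The speckle scaffold list lies mostly left of the dashed line with a median of -0.18, and the other medians lie between -0.12 and 0.01.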

How the data were processed

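RNA-seq was available as 1 library per genotype. Per the labels' protocols, total RNA of sorted cells was made into libraries with a TruSeq RNA v2 kit. HISAT2 and the build mm10 (GRCm38) are named in the submitters' processing notes. Per the file headers, the authors then quantified RefSeq transcripts with StringTie 1.3.3b and assembled no new ones. Genes were deposited with TPM, FPKM and coverage (mean depth per base). For transcripts the same 3 values were deposited, and for exons the coverage. Whether counting used strand was not given in the sources. TPM keeps no depth, so read pairs were estimated as covered bases (4199 and 5076 megabases) divided by 202, the step in which low coverage rises and so taken as the length of 2 mates; 19.0% and 19.6% of transcripts with few reads lay within 2 bases of a multiple of 202, against 2.48% by chance. This gave 20.8 and 25.1 megapairs. Duplicates from PCR cannot be seen, so intervals cover counting error only.

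TPM of rows with the same identifier was summed, and 24462 identifiers were matched to symbols in the RefSeq table of GRCm38.p6. The fold rules are rules of size, not tests: 1 and 0.5 on the log2 scale with a pseudocount of 1 TPM, for genes with at least 1 TPM in a library. Exon depth was summed over the transcripts of a gene, and overlapping exons were merged into blocks. A gene's ends and terminal exon are those of its most abundant transcript, and depth within an exon was taken as even. Transcript shares were compared where a gene had 10 TPM or more in each library, and internal exons with at least 50 read pairs. Sequences and coding parts are from GENCODE M21 (GRCm38). The genes and lists were chosen with earlier results of these data known. Named genes are the 8, the 3 highest and 3 lowest of each list with at least 5 TPM, and, after their values were seen, Sap18, Clk1, Clk2, Clk4, Kcnq1ot1 and the forms of Neat1. Python 3.11.15 was used with scipy 1.17.1, numpy 2.4.6, matplotlib 3.10.9 and pandas 2.3.3. The fold rule, intervals and exon sums were tested on simulated data.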

Additional observations from a re-analysis of the deposited data

How the results depend on the processing

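No paired analysis was possible because each genotype has 1 library, and for the same reason no library could be left out. Of 152 alternative values, 114 moved by less than their counting interval or stayed within 1.5 times, and 38 moved further. For the medians of the 8 and of the lists, the limit was the median half-width of the intervals of the 8 genes. That is no counting interval of those medians. Part of the 114 could not move, so this tally is no measure of robustness. A filter on genes leaves the value of a single gene as it was. A limit on read pairs only keeps or drops the value of a terminal exon. Among the log2 values the sign changed for Nsrp1 (0.09 with FPKM, 0.06 rescaled), and for the medians of the exon junction complex, TREX and snRNP assembly where their values below have the other sign than -0.04, -0.03 and 0.01. With FPKM the log2 fold changes were -0.24 for Srrm1, -0.47 for Srrm2, -0.23 for Son, -0.073 for Pnn, -0.33 for Acin1, 0.23 for Rnps1 and -0.59 for Malat1. The median of the 8 was then -0.24, and 1 gene passed 0.5. The list medians with FPKM were -0.080 for speckle scaffolds, 0.060 for the exon junction complex, 0.063 for TREX, -0.024 for architectural RNAs and 0.10 for snRNP assembly. With the median ratio of all genes set to zero (a shift of -0.06) the values were -0.28 for Srrm1, -0.51 for Srrm2, -0.27 for Son, -0.11 for Pnn, -0.37 for Acin1 and -0.63 for Malat1, with a median of -0.27. The list medians were then -0.12, 0.024, 0.032, -0.060 and 0.074 in the same order. Without the terminal exon the values were -0.40 for Son, -0.30 for Pnn and -0.39 for Acin1, 1 gene passed 0.5 (Malat1, with 1 exon, has no value), and the medians were -0.26 for speckle scaffolds, 0.019 for the exon junction complex and -0.056 for snRNP assembly. Scaled by covered bases, the highest exon ratio was 1.15 in Son and 0.978 in Pnn, and that of the single Malat1 exon 0.660. With a threshold of 10 points, 1 transcript share differed. For the moved values the cause was not tested. Exons 2 to 6 of Nsrp1 rest on 17.9 to 53.6 estimated read pairs each. The spread between mice is unknown.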

Other observations

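The genes that carry mRNA from speckles to the cytoplasm, the TREX complex and its partners, were centred on a log2 fold change of -0.03 (median of 21 genes), with 12 below zero, 9 above and none past 0.5; the median was 0.063 with FPKM and 0.032 with the median of all genes set to zero. The highest were Nxt1, a cofactor of the export receptor (57.3 and 69.9 TPM in the wild-type and KO libraries), Alyref and Thoc6 (67.4 and 80.7 TPM). The lowest were Tpr, a protein of the nuclear pore basket (126 and 105 TPM), Mcm3ap (68.8 and 57.9 TPM) and Thoc2 (89.0 and 77.6 TPM), with transcripts of 7550, 6383 and 7619 bases. Over their last 1000 bases these 3 genes were not lower in the KO library, with log2 ratios of 0.03, 0.15 and 0.08, against -0.82, -0.59 and -0.71 over their first 1000 bases.

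Genes of the Cajal body and of snRNP assembly, which supply speckles with spliceosomal particles, had a median of 0.01 over 14 genes, 7 on each side of zero, and of -0.056 without the terminal exons. Gemin6, a subunit of the SMN complex, was higher by 0.60 (18.5 and 28.4 TPM), a size in this direction that 3.37% of all genes reached. Smn1 stood at 59.4 and 69.7 TPM and Gemin7 at 79.8 and 88.7 TPM. Sart3, a recycling factor of snRNPs, was the lowest, at 84.1 and 67.9 TPM, followed by Gemin8 (10.8 and 8.89 TPM) and Gemin5 (36.0 and 30.8 TPM).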
